A study of Mus musculus with 13 samples.

Results

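The genes described are 3 members of the Notch pathway, Hes1, Hes5 and Dll1, and the binding of 4 transcription factors around them in cultured mouse neural progenitors derived from embryonic stem cells. The members are the peaks whose centre lies in a window drawn around each gene on the mouse build mm9: chr16:29550000-30300000 for Hes1, chr4:154200000-154450000 for Hes5 and chr17:15350000-15650000 for Dll1. These windows held 74 of the 23280 peaks in the 4 deposited lists, namely 18 of the 5551 in the Nkx2.2 list, 15 of 4094 for Nkx6.1, 26 of 11747 for Olig2 and 15 of 1888 for Gli3. Binding was read out by ChIP-seq, sequencing of chromatin pulled down with an antibody, and a peak is a stretch of 300 bp that the authors listed as bound. The 13 libraries were 7 ChIP libraries, 2 per ventral factor and 1 for Gli3, and 6 inputs, which are sequenced chromatin without immunoprecipitation.

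Cultures for all factors spent 2 days in suspension and 3 days with 500 nM all-trans retinoic acid. Nkx2.2, Nkx6.1 and Olig2 were profiled in ventral progenitors, which also received 160 to 800 nM of SAG, a Smoothened agonist that switches on Sonic hedgehog signalling. Their background was mixed, from C57BL6/J, 129 Sv and also Swiss Webster. The line was YFP3.1 for replicate 1 of Nkx6.1 and Olig2, and Rosa26-Gli1FLAG, a YFP3.1 derivative, for Nkx2.2 and for replicate 2 of all 3 factors. The antibodies were cocktails for Nkx2.2 and Nkx6.1 and a single antibody for Olig2, and Gli3 was pulled down by its FLAG tag. Gli3 was profiled without SAG, in progenitors labelled dorsal, from V6.5 cells (C57BL/6 X 129/sv) with a tag of 3xFLAG-Avi at the Gli3 start codon. Factor, culture, line and antibody therefore cannot be told apart wherever Gli3 is set beside the other lists. Among the ventral lists the antibody also changes with the factor. The line does so in part, since replicate 1 of Nkx2.2 came from another line than replicate 1 of Nkx6.1 and Olig2. No expression was measured here, so the cell type was not checked against markers, and whether binding goes with a change in any of the 3 genes was not analysed.

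In the Notch pathway a ligand on the surface of a cell activates Notch receptors on its neighbour. The receptor's inner part is released, joins the DNA-binding protein RBPJ in the nucleus and switches on target genes. Dll1 is such a ligand, and Hes1 and Hes5 are target genes that code for basic helix-loop-helix repressors, which hold neural progenitors back from becoming neurons and also repress Dll1. Of the factors profiled, Olig2 is a basic helix-loop-helix factor that binds E-boxes, Nkx2.2 and Nkx6.1 are homeodomain factors, and Gli3 is the zinc-finger factor of the Hedgehog pathway that acts mainly as a repressor when the signal is absent.

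RefSeq promoter sequences were at hand for 2 of the 3 genes, on the build GRCm38.p6. They are shown because they carry letters that the families of some of these factors and, at Hes5, RBPJ can recognise. Each is the 250 bases before an annotated start, 5′ to 3′ on the gene's strand. Capitals mark E-boxes (CANNTG), the homeodomain core TAAT and the RBPJ core TGGGAA, each searched on both strands, and no marked match overlaps another.
Hes5, chr4:154960673-154960922, plus strand: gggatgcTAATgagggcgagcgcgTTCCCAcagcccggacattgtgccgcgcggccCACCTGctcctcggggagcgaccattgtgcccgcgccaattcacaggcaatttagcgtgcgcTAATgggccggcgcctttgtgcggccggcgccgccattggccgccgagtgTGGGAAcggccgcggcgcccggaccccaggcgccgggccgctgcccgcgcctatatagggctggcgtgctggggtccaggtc
Dll1, downstream start, chr17:15375824-15376073, minus strand: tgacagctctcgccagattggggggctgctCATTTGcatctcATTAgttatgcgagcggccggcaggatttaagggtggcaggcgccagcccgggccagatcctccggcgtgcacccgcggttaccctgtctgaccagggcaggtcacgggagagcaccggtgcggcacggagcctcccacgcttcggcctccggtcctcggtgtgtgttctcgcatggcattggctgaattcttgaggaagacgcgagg
Dll1, upstream start, chr17:15376933-15377182, minus strand: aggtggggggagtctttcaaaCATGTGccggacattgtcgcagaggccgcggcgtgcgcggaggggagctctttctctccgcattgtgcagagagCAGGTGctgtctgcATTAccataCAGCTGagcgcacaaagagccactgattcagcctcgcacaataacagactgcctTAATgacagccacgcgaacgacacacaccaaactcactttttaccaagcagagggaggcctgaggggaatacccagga

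The Hes5 promoter held 2 matches to the RBPJ core, 1 on each strand, which 21.6% of the 32851 promoter sequences of the table hold at least once. It also held 1 E-box and 2 TAAT cores. The upstream Dll1 promoter held 3 E-boxes and 2 TAAT cores, and the downstream one held 1 E-box and 1 TAAT core. Neither Dll1 promoter held an RBPJ core. These shorter motifs are common, with an E-box in 66.2% and a TAAT core in 54.9% of all promoter sequences. The Nkx2 core CACTT, left unmarked, had 1 match in the upstream Dll1 promoter and none in the other stretches, and 40.7% of all sequences held it. The Gli motif GACCACCCA was in none of the 3 stretches and in 0.225% of all. The peaks are on mm9, so where they lie relative to these promoters or to any gene start was not analysed. The windows can also cover neighbouring genes. In GRCm38 the protein-coding genes next to Hes1 are Opa1 and Cpn2, those next to Hes5 are Tnfrsf14 and Pank4, and those next to Dll1 are Ermard and Fam120b.

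Peaks of all 4 lists were found in all 3 windows. The Hes1 window of 750 kb held 43 peaks: 15 Olig2, 10 Nkx2.2, 10 Gli3 and 8 Nkx6.1 peaks. The Dll1 window of 300 kb held 20 peaks: 7 Olig2, 6 Nkx2.2, 5 Nkx6.1 and 2 Gli3 peaks. The Hes5 window of 250 kb held 11 peaks: 4 Olig2, 3 Gli3, 2 Nkx2.2 and 2 Nkx6.1 peaks. Per Mb, the windows together held 13.8 Nkx2.2, 11.5 Nkx6.1, 20 Olig2 and 11.5 Gli3 peaks. Over the span that the lists cover, the rates were 2.17, 1.601, 4.59 and 0.738 peaks per Mb. The ratio of the rates was therefore highest for Gli3, at 15.6, and lay between 4.35 and 7.21 for the ventral lists. The windows were chosen around genes and with earlier results known, so these ratios describe the windows and were not tested.

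Set beside even tiles of the genome, the Hes1 window stood near the top. At least 43 peaks fell in 0.117% of 3426 tiles of 750 kb, and at least 10 Gli3 peaks in 0.0584%. For the counts of Nkx2.2, Nkx6.1 and Olig2 there the tiles came to 0.613%, 0.701% and 0.992%. At least 20 peaks, the number at Dll1, fell in 0.281% of 8543 tiles of 300 kb, while the counts of Nkx2.2, Nkx6.1, Olig2 and Gli3 there were reached in 0.445%, 0.515%, 2% and 4.27%. At least 11 peaks, the number at Hes5, fell in 2.08% of 10249 tiles of 250 kb. At Hes5, Gli3 was the list whose count was least often reached, with at least 3 peaks in 0.985% of tiles, against 12.7%, 8.18% and 7.84% for the Nkx2.2, Nkx6.1 and Olig2 counts. The tiles include those that cover the windows themselves.

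**Figure D1:**
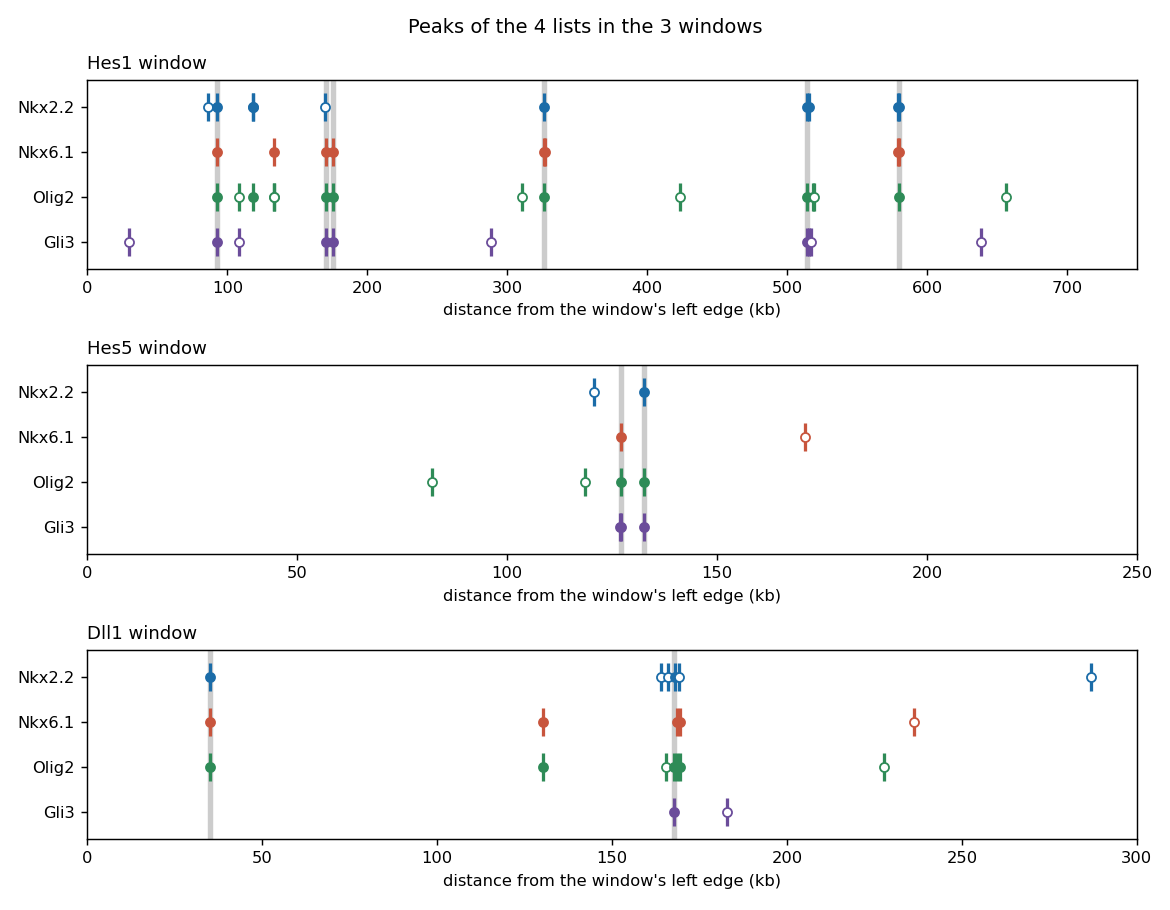
Positions of the 74 peaks in the Hes1, Hes5 and Dll1 windows, in kb from the left edge of each window, with 1 row per list. Filled circles are peaks that share at least 1 bp with a peak of another list, and open circles are the others. Grey bars mark the 10 regions with at least 3 lists, 6 at Hes1, 2 at Hes5 and 2 at Dll1.

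Joined where they overlapped, the 74 peaks formed 43 regions. Of these, 16 held at least 2 lists and 10 held at least 3, where 16.2% and 3.56% of the 19087 regions of the genome did so. The 10 regions of at least 3 lists were 6 at Hes1, 2 at Hes5 and 2 at Dll1. Only 1 region, in the Hes1 window, held all 4 lists, as 0.367% of all regions do, and joining peaks up to 500 bp apart gave 3 such regions. Olig2 was part of all 10, as it is of 98.5% of the 679 such regions of the genome. Of the 27 regions with a single list, 11 were Olig2, 8 Nkx2.2, 6 Gli3 and 2 Nkx6.1 regions. In the genome 57.2%, 21.9%, 7.41% and 13.5% of the 15993 single-list regions were of these lists.

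Coverage, the authors' measure of reads over each position, was given for Nkx2.2, Nkx6.1 and Olig2 in 1 table each and not for Gli3. Each table has 3 sets of columns, called blocks 1, 2 and 3 in file order. Since no header ties a block to a library, blocks are not treated as replicates. Centre coverage is the mean within 250 bp of the peak centre, in the table's own units, and values are compared within a block of a table only. A percentile places a peak among all peaks of its list, where the list's median is 50 by construction. Block 3 of the Nkx6.1 and Olig2 tables held nearly the same profiles. At 1676 pairs of peaks with centres within 500 bp, its aligned profiles had a median correlation of 0.976, and at the 13 such pairs in the windows the correlation ran from 0.939 to 0.988. Its smallest step was 0.392 units in both tables. The only sample that the labels attach to both tables is an input. In block 3 of the Nkx2.2 and Olig2 tables the median correlation was 0.253 over 1436 pairs, and in block 1 of the Nkx6.1 and Olig2 tables it was 0.864.

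At Dll1, the ligand gene, binding of the ventral factors lay mainly in 3 places. The leftmost of them, chr17:15384849-15385272, held Olig2, Nkx2.2 and Nkx6.1. Centre coverage of Olig2 there came to 87.3, 123.1 and 2.30 units in blocks 1, 2 and 3. Nkx2.2 had 33.2, 4.55 and 3.28 units, and Nkx6.1 had 17.1, 8.91 and 2.24. Olig2 was the factor that stood highest in its list, at the 98.2 percentile of block 1 and the 99.7 percentile of block 2. Block 3 was also high at this region, at the 98.9, 97.3 and 99.2 percentiles of the Olig2, Nkx2.2 and Nkx6.1 lists. Its centre was 8.38 to 9.91 times the flank, the outermost 250 bp on each side of the profile, and its part in the listed binding was not tested.

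The next place, chr17:15480017-15480328, held the highest Nkx6.1 coverage of the 3 windows. Nkx6.1 had 72.8 units in block 1 and 35.2 in block 2, which ranked 27 and 34 of 4094 peaks. Olig2 had 64.9 and 87.5 units there, at the 96.6 and 99.3 percentiles, and the centres of the Nkx6.1 and Olig2 peaks nearly coincided. Block 3 was 1.94 units in the Nkx6.1 table and 1.92 in the Olig2 table, at the 98.4 and 97.3 percentiles. No Nkx2.2 or Gli3 peak was listed at this place.

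The third place at Dll1 was a group of 7 regions and 11 peaks within 5.57 kb, from 15513925 to 15519492 on chromosome 17. It held 4 Nkx2.2, 4 Olig2, 2 Nkx6.1 and 1 Gli3 peak. The region of 3 lists, chr17:15517508-15518004, held Nkx2.2 (30.2, 5.99 and 1.71 units in blocks 1, 2 and 3), Olig2 (17.5, 33.5 and 1.81 units) and Gli3. The region chr17:15518457-15518789 held Olig2 at 43.2, 48.1 and 1.03 units with Nkx6.1 at 5.79, 3.52 and 1.03. At chr17:15519188-15519492, Olig2 had 27.4, 35.2 and 1.12 units and Nkx6.1 had 14.9, 18.6 and 1.10. Between the latter regions lay an Nkx2.2 peak at 15518855 that touched neither, with 27.9, 22.2 and 1.02 units. Olig2 thus had its higher values in the part of the group to the right, and so did Nkx2.2. From left to right, the 4 Nkx2.2 peaks had 23.3, 16.4, 30.2 and 27.9 units in block 1. In block 2 they had 3.55, 3.25, 5.99 and 22.2 units.

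Peaks of the Dll1 group lie so close that the flank of 1 holds the next. The Nkx2.2 peak at 15515805 had a centre of 16.4 units in block 1 and a flank of 41.2, a ratio of 0.398, and its flank covers the Nkx2.2 peaks on each side. Outside the group, the Dll1 window held an Olig2 peak at 15577509 (18.1 and 12.9 units in blocks 1 and 2) and an Nkx6.1 peak at 15586280 (6.26 and 2.59 units). It also held an Nkx2.2 peak at 15636662 (16.8 and 2.30 units) and a Gli3 peak at 15532812. The Nkx2.2 peak at 15636662 was at the 42.3 percentile in block 1, the 16.4 in block 2 and the 94.1 in block 3.

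At Hes1, a Notch target and repressor, the window held some of the highest coverage of whole lists. The region of all 4 lists, chr16:29642464-29642922, held an Olig2 peak with 563 units in block 1 and 244.3 in block 2, with 0.486 in block 3. It ranked 3 of 11747 in both block 1 and block 2. The other ventral factors stood lower in their lists there. Nkx6.1 had 11.2, 13.8 and 0.467 units, at the 56.01 and 89.04 percentiles of blocks 1 and 2. Nkx2.2 had 16.96, 5.13 and 0.280 units, at the 42.8 and 57.4 percentiles. The Gli3 peak stood on line 1057 of 1888, 55.99% of the way down its list. In the lists with coverage, line number ran with block 1 coverage (Spearman correlation across peaks of -0.827 to -0.928), and whether the Gli3 list follows such an order could not be seen from its file.

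Further to the right, the Nkx2.2 and Olig2 order was turned around. At chr16:29668527-29668846, Nkx2.2 had 268.1 units in block 1 and 54.3 in block 2, with 1.47 in block 3, ranks 9 and 10 of 5551. The Olig2 peak there had 7.22, 9.73 and 0.392 units, at the 17.4 and 56.7 percentiles. The region therefore joined one of the highest Nkx2.2 peaks to a low or middling Olig2 peak, and the region of 4 lists joined one of the highest Olig2 peaks to a middling Nkx2.2 peak.

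Further strong Olig2 peaks lay at chr16:29720117-29720463 and chr16:29725152-29725495, both with Nkx6.1 and Gli3 and without an overlapping Nkx2.2 peak. The former lay only 91 bp from an Nkx2.2 peak at 29719726, described below. Olig2 had 184.1, 136.6 and 1.33 units at the former, ranks 39 and 20 in blocks 1 and 2, and 55.2, 56.3 and 1.05 units at the latter. Nkx6.1 had 10.8, 11.8 and 1.25 units at the former and 7.90, 13.4 and 1.03 at the latter. The Gli3 peaks stood 0.212% and 22.4% of the way down their list, the former on line 4. At the former, the Gli3 peak on line 4 overlapped an Olig2 peak near the top of its own list by coverage. The Gli3 place is a line number only, and whether it follows the strength of binding could not be seen.

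Another region, chr16:30129423-30130320, held 5 peaks of the 3 ventral factors over 898 bp and no Gli3 peak. Olig2 had 224.99, 193.7 and 2.02 units, ranks 22 and 6 of 11747. The Nkx6.1 peak at 30130021 had 37.1, 33.6 and 1.18 units, at the 96.9 and 98.9 percentiles, and a second at 30129423 had 16.8, 14.2 and 1.12. The Nkx2.2 peaks at 30129475 and 30129761 had 47.3 and 49.5 units in block 1 and 17.8 and 16.2 in block 2, all between the 93.2 and 95.2 percentiles. These 2 peaks overlap and have the same block 2 summit height, 27.8 units, so they are not separate readings. The 2 Nkx6.1 peaks likewise have the same block 2 summit height, 45.6 units. This region was the place where all 3 ventral factors were high together.

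At chr16:29876160-29876829 the order differed again. Nkx2.2 had 63.9, 19.1 and 1.69 units, at the 96.8 and 96.1 percentiles. The 2 Nkx6.1 peaks had 17.7 and 10.9 units in block 1 and 9.11 and 6.45 in block 2. Both had the same block 1 summit height, 37.6 units, so they are not separate readings. Olig2 had 6.58, 8.91 and 0.747 units and was at the 11.4 percentile of block 1. At chr16:29683213-29683530, Nkx6.1 had 16.1, 7.09 and 1.57 units and Olig2 had 8.71, 9.06 and 1.55, with block 3 at the 95.1 and 93.4 percentiles.

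**Figure D2:**
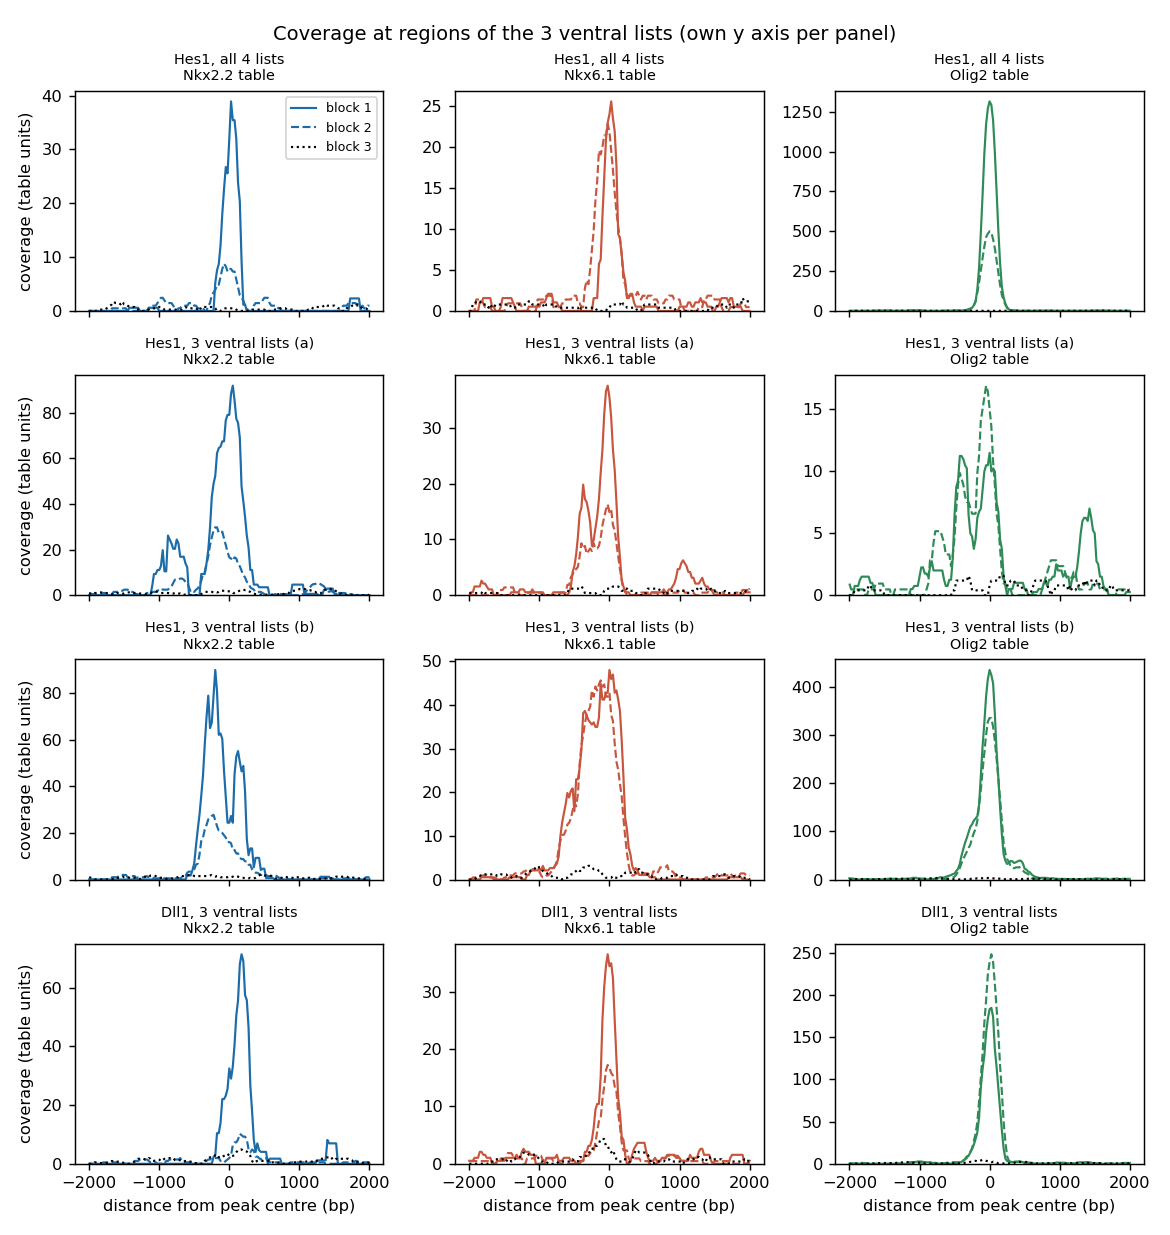
Coverage (y, table units, own scale per panel) against distance from the peak centre (x, bp) at the Hes1 region of 4 lists, the Hes1 regions of 3 ventral lists at 29876160 (a) and 30129423 (b), and the Dll1 region at 15384849, with the solid, dashed and dotted lines showing blocks 1, 2 and 3. The Olig2 summit in block 1 reaches 1314 units at the region of 4 lists and 435.6 at (b), and 11.4 at (a), where Nkx2.2 reaches 91.8.

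A compact group at Hes1 spanned 30064260 to 30069178 on chromosome 16, with 5 regions and 8 peaks in 4.92 kb. It held 2 Nkx2.2, 3 Olig2 and 3 Gli3 peaks and no Nkx6.1 peak. The region chr16:30064260-30064602 held Nkx2.2 at 40.3, 5.36 and 1.34 units, Olig2 at 11.2, 17.2 and 0.952 units, and a Gli3 peak 6.57% of the way down its list. The region chr16:30065196-30065505 held Nkx2.2 at 16.02, 4.97 and 1.25 units with Gli3 on line 1055 of 1888. Its highest Olig2 peak, at 30068228, had 25.9, 17.9 and 2.11 units. That peak overlapped no other list, and its block 3 value was at the 98.3 percentile.

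Of the Hes1 peaks outside regions of 2 or more lists, the highest Nkx2.2 peak in block 1 was at 29719726, with 79.4, 47.7 and 1.08 units, at the 98.03 and 99.7 percentiles. The highest such Olig2 peak was at 29658309, with 65.0, 38.3 and 0.878 units. The first Gli3 peak by position was at 29579262, on line 639 of 1888. Each of the 8 Nkx6.1 peaks at Hes1 overlapped a peak of another list, where 47.1% of the whole Nkx6.1 list did.

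At Hes5, the other repressor gene, the 250 kb held 6 regions, against 13 at Dll1 and 24 at Hes1 in their larger windows. The 2 regions of 3 lists both held Olig2 and Gli3, one with Nkx6.1 and the other with Nkx2.2. At chr4:154326793-154327373, Nkx6.1 had 7.45, 4.59 and 1.31 units and Olig2 had 11.4, 26.5 and 1.31, beside 2 Gli3 peaks 16.4% and 79.03% of the way down their list. At chr4:154332375-154332728, Nkx2.2 had 11.8, 2.53 and 0.873 units and Olig2 had 7.04, 10.0 and 1.08, beside a Gli3 peak 10.3% of the way down. The ventral peaks at these regions were at the 15.0 to 50.5 percentile of their lists in block 1. In block 2 Olig2 reached the 89.7 percentile at the former.

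The remaining Hes5 peaks overlapped no other list. Nkx6.1 at 154370848 had 24.7, 7.84 and 1.008 units, at the 91.3 and 70.1 percentiles of blocks 1 and 2. Nkx2.2 at 154320524 had 14.1, 2.79 and 3.04 units, with block 3 at the 95.4 percentile and blocks 1 and 2 at the 27.1 and 24.4. The higher of the 2 Olig2 peaks, at 154318479, had 9.59, 8.02 and 1.62 units. In the Nkx2.2 list, both Hes5 peaks were thus below the list's median in blocks 1 and 2.

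Over the 3 windows, sharing was more frequent than in the whole lists. A peak of another list overlapped 10 of 18 Nkx2.2 peaks (35.3% of the whole list), 13 of 15 Nkx6.1 peaks (47.1%), 15 of 26 Olig2 peaks (21.7%) and 9 of 15 Gli3 peaks (36.3%). Without the Hes1 window the Nkx2.2 share was 37.5%, close to that of its list, while Nkx6.1, Olig2 and Gli3 stood at 71.4%, 63.6% and 80%. These shares were not tested, since the members were chosen and are few.

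**Figure D3:**
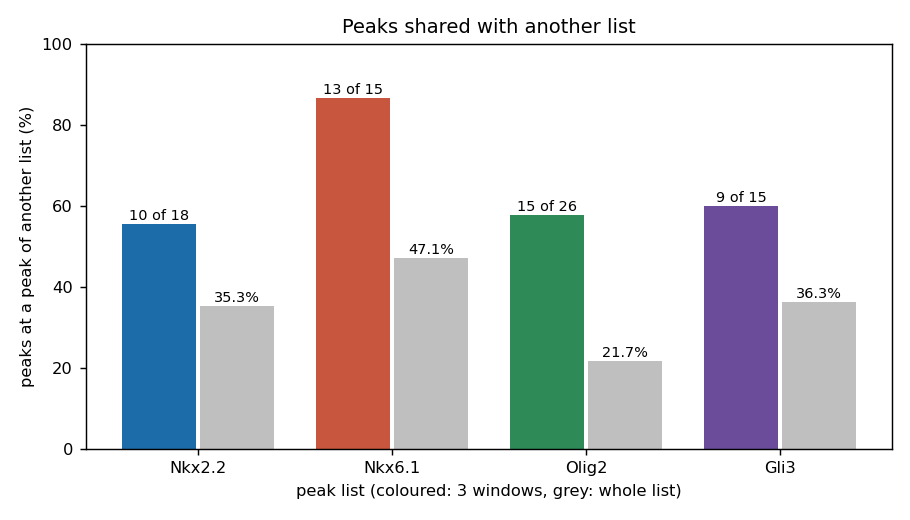
Percentage of peaks (y) that share at least 1 bp with a peak of another list, for each list (x), in the 3 windows (coloured bars, with counts above) and in the whole list (grey bars, with percentages above). All 4 coloured bars stand above the grey bars, by most for Nkx6.1 and Olig2.

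By pair, Nkx6.1 peaks lay at Olig2 peaks in 12 of 15 cases, where 38.6% of the whole Nkx6.1 list did. The reverse count was 11 of 26 Olig2 peaks at Nkx6.1, against 13.5% of the Olig2 list. Their centres were 25.5 bp apart at the median of 12 pairs, with a range of 0.005 to 0.281 kb, and 46 bp apart over the whole lists. Nkx2.2 lay at Olig2 in 9 of 18 cases (24.3% of its list) and at Nkx6.1 in 5 of 18 (16.1%). Of the 43 regions, 0 held Nkx2.2 and Nkx6.1 without Olig2, and 1.66% of all regions did. The 4 regions with Nkx2.2 and Nkx6.1 were the 4 with all 3 ventral factors.

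Gli3 peaks lay at Olig2 peaks in 8 of 15 cases, against 20.1% of the Gli3 list, at Nkx6.1 peaks in 5 of 15 (7.36%), and at Nkx2.2 peaks in 5 of 15 (22.5%). All 3 Gli3 peaks at Hes5 and 5 of the 10 at Hes1 overlapped a ventral factor. At Dll1 the count was 1 of 2, and 36.3% of the whole Gli3 list overlapped a ventral factor. Seen from the ventral lists, Gli3 peaks overlapped 7 of 26 Olig2 peaks, 5 of 18 Nkx2.2 peaks and 4 of 15 Nkx6.1 peaks, where 3.26%, 7.91% and 3.47% of these lists were overlapped. The Olig2 and Gli3 peaks that overlapped had centres 0.005 to 0.161 kb apart.

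Window peaks of each list differed widely in coverage. The 18 Nkx2.2 peaks ran from 11.8 to 268.1 units in block 1 with a median of 29.1, where the list's median was 18.4. The 15 Nkx6.1 peaks ran from 5.79 to 72.8 with a median of 14.9 (list 10.4), and the 26 Olig2 peaks from 6.58 to 563 with a median of 11.3 (list 11.3). Their median percentiles were 80.2, 74.9 and 49.9 in block 1 and 62.98, 75.9 and 73.8 in block 2. By the ratio of centre to flank in place of centre coverage, the Nkx2.2 median fell to the 39.3 percentile (pseudocount 1) or 26.9 (pseudocount 0.1). The Olig2 median fell to 27.9 or 29.3, so both lay below the median of their lists, and Nkx6.1 moved to 60.96 or 53.6. The top 10% of the list in block 1 held 6 of 18 Nkx2.2 peaks (10% of the list), 3 of 15 Nkx6.1 peaks (9.99%) and 8 of 26 Olig2 peaks (10%). In block 2 the counts were 6 of 18, 3 of 15 and 10 of 26 (9.99% of the Olig2 list). The Nkx2.2 count of each block includes both peaks at 30129475 and 30129761, which overlap each other.

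The loci differed in the median percentile of each factor. Nkx2.2 peaks at Hes1 had a median percentile of 91.8 in block 1 and 84.9 in block 2. Those at Dll1 had 73.2 and 44.1, and the 2 at Hes5 had 21.1 and 22.4. Olig2 ran the other way between Hes1 and Dll1, with medians of 40.4 and 56.7 over 15 peaks at Hes1 and 85.1 and 94.05 over 7 peaks at Dll1. The 4 Olig2 peaks at Hes5 had 30.6 and 52.975. Nkx6.1 medians were 67.1 and 86.8 at Hes1, 56.6 and 56.9 at Hes5, and 74.9 and 75.1 at Dll1. Peaks of a locus overlap or adjoin each other, so they are not independent, and no difference between loci was tested.

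**Figure D4:**
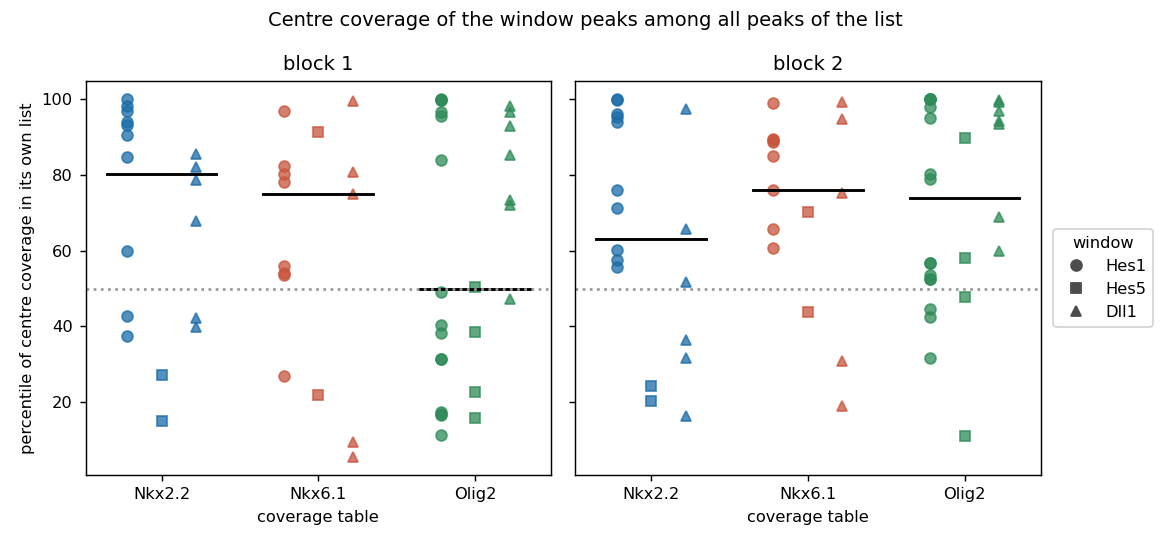
Percentile of centre coverage in its own list (y) for each window peak of Nkx2.2, Nkx6.1 and Olig2 (x), in block 1 and block 2, with circles for Hes1, squares for Hes5 and triangles for Dll1. Black lines are medians over the 3 windows and the dotted line is the list's median; Nkx2.2 peaks at Hes5 sit low in both panels and Olig2 peaks at Dll1 sit high in block 2.

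Shared and other peaks were also set side by side. The median in block 1 was 27.4 units over 15 shared Olig2 peaks and 9.59 over 11 others, and 15.9 and 10.5 over the whole list. For Nkx2.2 it was 36.7 over 10 shared peaks and 22.1 over 8 others, and 22.2 and 16.8 over the whole list. In block 2 the Nkx2.2 medians were 5.68 and 5.21 (6.25 and 3.88 over the whole list). The Olig2 medians there were 35.2 and 8.91 (15.3 and 7.26 over the whole list). Nkx6.1 had 14.9 units in block 1 over 13 shared peaks and 15.5 over the 2 others, which had 24.7 and 6.26. In block 2 the Nkx6.1 medians were 11.8 and 5.22. Over the whole Nkx6.1 list they were 12.4 and 8.97 in block 1 and 7.31 and 3.81 in block 2. Shared peaks thus had the higher median for Olig2 in both blocks, while the Nkx2.2 gap was small in block 2. The Nkx6.1 medians were close in block 1 and apart in block 2, with only 2 peaks on the other side. Blocks 1 and 2 ranked the window peaks alike, with a Spearman correlation across peaks of 0.82 over 18 Nkx2.2 peaks, 0.64 over 15 Nkx6.1 peaks and 0.89 over 26 Olig2 peaks. Blocks 1 and 3 gave 0.084, 0.35 and 0.29. Close peaks share reads, so these are descriptions.

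Centre coverage over 2 times the flank was found in block 1 at 14 of 18 Nkx2.2 peaks (99.2% of the list), 15 of 15 Nkx6.1 peaks (99.6%) and 25 of 26 Olig2 peaks (98.8%). In block 2 it was found at 16 of 18 (94.9%), 15 of 15 (96.4%) and 26 of 26 peaks (97.4%). The 4 Nkx2.2 exceptions were 3 peaks of the Dll1 group and the peak at 30065196 in the compact Hes1 group, and the Olig2 exception was the peak at 15517508 in the Dll1 group. In block 3 the counts were 7 of 18 for Nkx2.2 (56.4%), 10 of 15 for Nkx6.1 (38.4%) and 13 of 26 for Olig2 (40.4%). The part of raised block 3 coverage in the listed peaks was not tested. At the Olig2 peak that ranked 3, block 3 was 0.567 times its flank.

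Peaks of different factors also sat side by side without touching. At Hes1 the Nkx2.2 peak at 29719726 and the Olig2 peak at 29720154 had centres 0.428 kb apart. Within 100 bp of the Nkx2.2 centre, Olig2 coverage was 4.23 units in block 1 and 10.3 in block 2, against 339.03 and 235.8 at its own peak. Nkx2.2 coverage at the Olig2 centre was 54.8 and 16.8 units, against 140.96 and 80.8 at its own peak. Olig2 was thus far lower at the Nkx2.2 centre than at its own, though above its flank of 0.689 and 0.935 units. Nkx2.2 at the Olig2 centre also stood above its flank, of 5.41 and 0.731 units.

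At Dll1 a like spacing was seen between the Nkx2.2 peak at 15518855 and the Olig2 peak at 15519188, with centres 0.333 kb apart. Olig2 coverage at the Nkx2.2 centre was 11.7 units in block 1 and 15.7 in block 2, against 46.3 and 54.9 at its own peak. Nkx2.2 coverage at the Olig2 centre was 22.6 and 28.3 units, against 39.3 and 17.01 at its own peak. The blocks therefore differed in where Nkx2.2 was higher, at its listed centre in block 1 and at this Olig2 centre in block 2. On its other side the same Nkx2.2 peak lay 0.365 kb from the Olig2 peak at 15518490. Nkx2.2 coverage at that Olig2 centre was 33.2 units in block 1 and 8.29 in block 2, under the values at its own peak in both blocks.

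**Figure D5:**
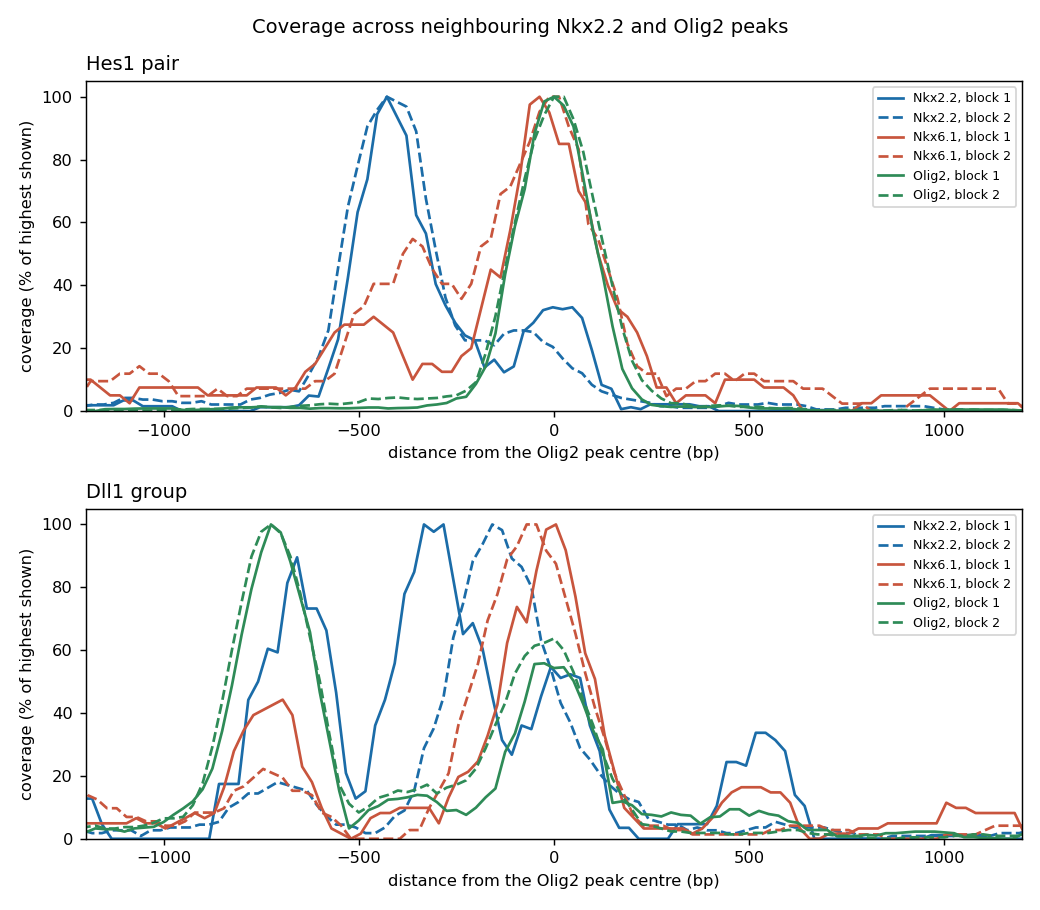
Coverage as a percentage of the highest value shown (y) against distance from the Olig2 peak centre (x, bp), for the Hes1 peaks at 29719726 to 29720154 (top) and around the Dll1 peaks at 15518855 and 15519188 (bottom), with solid lines for block 1 and dashed lines for block 2. At Hes1 the Nkx2.2 summit stands to the left of the Olig2 and Nkx6.1 summits, and at Dll1 Nkx2.2 has several summits whose heights and places differ between the blocks.

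Some Gli3 peaks without a ventral partner lay near a ventral peak. The Gli3 peak at 29657983 had its centre 0.326 kb from the Olig2 peak at 29658309. Olig2 coverage at the Gli3 centre was 30.3 units in block 1 and 40.04 in block 2, against 104.8 and 59.7 at the Olig2 centre and 1.34 and 1.49 in the flank. In the compact Hes1 group, the Gli3 peak at 30066642 had 8.35 and 1.40 units of Nkx2.2 and 2.73 and 2.57 units of Olig2. The flank values of these profiles were 9.98 and 0.886 for Nkx2.2 and 1.64 and 1.36 for Olig2. Olig2 coverage was thus many times the flank at the former peak and less than 2 times the flank at the latter. Part of the Olig2 flank used for the latter adjoins the Gli3 peak itself, so that ratio cannot show whether Olig2 was raised there.

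Outside the windows lay 69 regions of all 4 lists, and the 60 that are not on chromosomes 8 and 18 were compared with the Hes1 region of 4 lists. The measure was log2 of centre over flank, with a pseudocount of 1 on both, in blocks 1 and 2 of the 3 tables. The nearest were chr13:39973253-39973668, chr19:45533163-45533645 and chr5:101953008-101953447, at Euclidean distances of 3.01, 4.00 and 4.14 log2 units, where the median was 6.22. Their Olig2 values in block 1 were 5.83, 7.21 and 5.04 log2 units, all under the 8.31 of the Hes1 region. For Nkx6.1 they were 3.29, 4.22 and 3.54 in block 1, all over the 3.03 of the Hes1 region. Nkx2.2 had 4.49, 5.70 and 3.32 in block 1, against 3.55 at the Hes1 region.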

How the data were processed

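Peak lists and coverage tables were analysed as deposited. The build mm9 and the tools HOMER and Bowtie2 2.2.4 are named, without their roles, per the submitters' processing notes. Peak calling settings, filters and pooling of replicates are not given in the sources used here. In the lists the authors deposited start and end positions without a score per peak, 1 list per factor. Coverage, handled as a score, was deposited by the authors in steps of 25 bp to 2000 bp on either side of the centre, per the file headers, in 3 blocks. Low values are whole multiples of 1 step per block (within 0.02 of a step, up to 20 steps), and steps differ between most blocks; total read depth is unknown.

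Members and lists were chosen with earlier results of these data known. Table rows were matched to list lines, which was checked on peaks of 1 list within 1000 bp (median correlation of aligned profiles of 0.994 to 0.997). Overlap meant at least 1 bp. Functions were tested on simulated data. No test was made, as there is 1 list per factor and the blocks name no library. Named were all regions of at least 2 lists and, per list and window, the remaining peak with the highest block 1 percentile (Gli3: the first by position); further single peaks were named after their values were seen. Placing other Notch pathway genes, which needs an annotation of mm9, was planned and not run. Computations used numpy 2.4.6, scipy 1.17.1 and matplotlib 3.10.9.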

Additional observations from a re-analysis of the deposited data

How the results depend on the processing

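Counts of window peaks, of shared peaks and of regions of at least 2 lists stayed within 1.5 times the reported values under every alternative run (other window edges, overlap of at least 150 bp, centres within 100 or 1000 bp, other joining of peaks). Without Gli3, 4 regions held at least 3 lists in place of 10, since fewer lists were counted. Joining peaks up to 500 bp apart gave 3 regions of 4 lists in place of 1. The median Nkx2.2 percentile fell from 80.2 to 39.3 by log2 of centre over flank with a pseudocount of 1, and to 26.9 with 0.1; several flanks hold neighbouring peaks, and the cause was not tested. The Olig2 median moved from 49.9 to 27.9 and 29.3. The shares without 1 window in turn were added after seeing the data. No paired analysis was possible because each factor has 1 list and the blocks name no replicate. For the same reason no library could be left out. Depth is unknown, so no interval is given for coverage.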
